A study of Arabidopsis thaliana with 8 samples.

Results

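Transcript signals of 2 plastid chaperonin beta subunits, Cpn60beta3 (AT5G56500) and Cpn60beta4 (AT1G26230), and of the translocase subunit SECE1 (AT4G14870) were compared between the psah2k double mutant of Arabidopsis thaliana and the wild type (WT). Members were the array features that the platform annotation assigned to 1 of these genes and to no other. Each gene had 1 such feature (feature 4241 for Cpn60beta3, 1876 for Cpn60beta4 and 559 for SECE1) and 0 features shared with other genes. They were 3 of 3439 features on the array, of which 692 had 1 gene. Both genotypes were of ecotype Columbia 0, with 4 psah2k samples and 4 WT samples of total RNA, numbered 1 to 4 in each genotype. The labels describe the mutant as lacking the photosystem I proteins PSI-E1 and PSI-K, whereas psah2k as a name refers to the H and K subunits. Photosystem I is the light-driven complex that reduces ferredoxin. The sources used here give no organ, age, growth conditions or origin of the replicates. Every p-value below therefore measures the spread between these 8 samples only, part or all of which may be technical.

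Chaperonins are barrel-shaped complexes that enclose a newly made or imported protein while it folds. The plastid form is assembled from alpha and beta Cpn60 subunits, works with a lid of co-chaperonins and is best known for folding the large subunit of Rubisco. Cpn60beta3 is a plastid beta subunit, and Cpn60beta4 is a more divergent one known for folding NdhH, a subunit of the plastid NADH dehydrogenase-like (NDH) complex of cyclic electron flow. SECE1 is a small membrane subunit of the thylakoid Sec translocase, which moves unfolded proteins such as plastocyanin into or across the thylakoid membrane together with SCY1 and the motor protein SECA1.

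The deposited table gives 1 linear intensity per feature and array, between 0 and 100. How its background was corrected and its arrays scaled is not stated in the sources used here. The whole distribution lay lower in the mutant: array medians were 0.0506 to 0.0582 in psah2k and 0.304 to 0.336 in WT. Between 739 and 1014 features were listed at 0 on a psah2k array, against 448 to 472 on a WT array. Any fall in a deposited intensity therefore has to be read beside that shift. Arrays 1 and 2 resembled each other in some of these measures, as did arrays 3 and 4. Features at 0 numbered 972 and 1014 against 772 and 739 in psah2k. Medians were 0.333 and 0.336 against 0.304 and 0.305 in WT, whose features at 0 did not group so. The tests below treat the 4 arrays of a genotype as independent unless stated otherwise.

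On the deposited scale all 3 genes were several-fold dimmer in psah2k, as were most features of the array. Every psah2k array lay below every WT array for 3 of the 3 members and for 72.6% of the 2353 tested features, those with at least 3 values above 0 in each genotype. When each array was instead described by the order of its features, or when the arrays were scaled to a common distribution, the differences shrank to a size that mostly did not exceed the spread among the psah2k arrays. In bulk RNA, fewer cells of a type and less RNA per cell cannot be told apart.

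Cpn60beta3 had deposited intensities of 0.0695, 0.0688, 0.127 and 0.0281 on psah2k arrays 1 to 4, against 0.375, 0.347, 0.385 and 0.402 on WT arrays 1 to 4. The WT arrays lay close together, whereas psah2k 3 was the brightest and psah2k 4 the dimmest of the mutant, and the genotypes did not overlap. The means were 0.0734 ± 0.0407 in psah2k and 0.377 ± 0.0227 in WT (SD, n = 4 each), a psah2k over WT ratio of 0.195. On log2 values as deposited the fold change was −2.55 (SE 0.41, limma adjusted p = 0.000876), beside a median of −1.77 over all tested features.

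Cpn60beta4, the NdhH-folding subunit, had intensities of 0.0394, 0.0721, 0.0342 and 0 on psah2k arrays 1 to 4. It had 0.353, 0.383, 0.3001 and 0.305 on WT arrays 1 to 4. It was the 1 member with a value of 0, on psah2k 4, and again the genotypes did not overlap. The means were 0.0364 ± 0.0295 in psah2k, with the 0 counted as measured, and 0.335 ± 0.0398 in WT (SD, n = 4 each). The ratio of these means, 0.109, was the lowest of the 3 members. A value of 0 has no logarithm, so psah2k 4 was dropped from every log2 fit of Cpn60beta4 below unless stated otherwise. On the remaining 3 psah2k and 4 WT arrays the deposited log2 fold change was −2.86 (SE 0.29, limma adjusted p = 0.000173).

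SECE1, the translocase subunit, had intensities of 0.113, 0.0538, 0.186 and 0.107 on psah2k arrays 1 to 4, against 0.542, 0.578, 0.540 and 0.590 on WT arrays 1 to 4. Here psah2k 2 was the dimmest mutant array and psah2k 3 the brightest, without overlap between genotypes. The means were 0.115 ± 0.0542 in psah2k and 0.562 ± 0.0255 in WT (SD, n = 4 each), a ratio of 0.204. The log2 fold change as deposited was −2.42 (SE 0.34, limma adjusted p = 0.000463). Limma on the deposited values thus called 3 of 3 members lower, and it called 73.0% of all tested features lower.

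**Figure D1:**
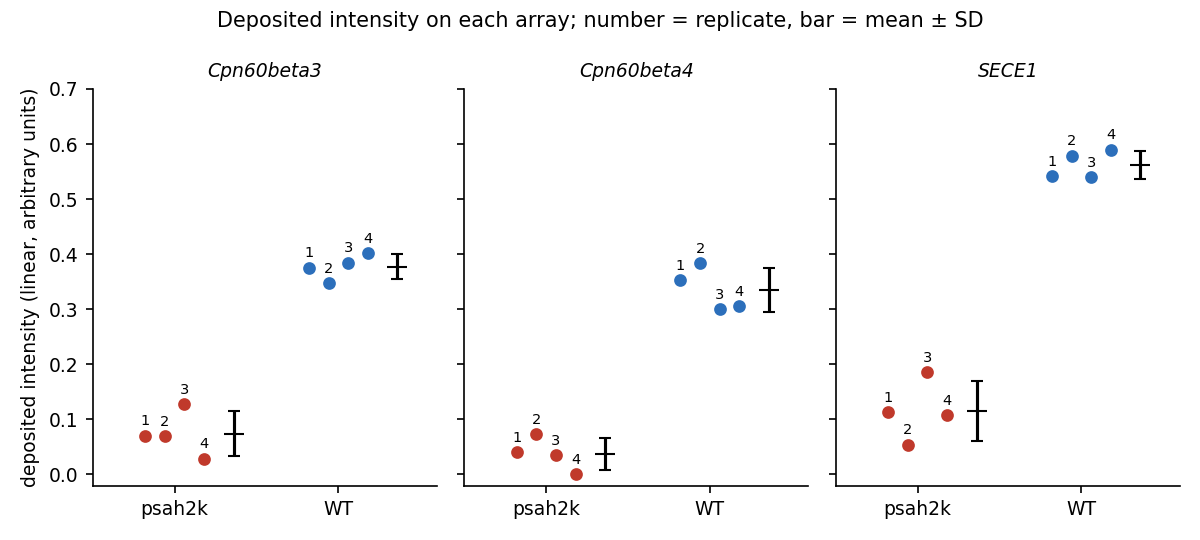
Deposited intensity (linear, arbitrary units) of Cpn60beta3, Cpn60beta4 and SECE1 on each of the 4 psah2k arrays (left in each panel) and 4 WT arrays (right); points carry the replicate number and bars show mean ± SD. Every psah2k point lies below every WT point, and Cpn60beta4 is at 0 on psah2k 4.

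The percentile rank of a feature, its place among all 3439 features of the same array from dimmest to brightest, needs no scaling between arrays. It is not free of the shift, since features at 0 share the lowest ranks and were more numerous on psah2k arrays. Ranking only features above 0 takes more of the low ranks away on psah2k arrays, which by itself lowers the other ranks there. Cpn60beta3 held ranks of 55.6, 55.5, 69.4 and 35.6 on psah2k arrays 1 to 4, and 54.4, 51.2, 59.0 and 60.7 on WT arrays 1 to 4. It lay near the middle of most arrays, with psah2k 4 below and psah2k 3 above all WT arrays. The mean rank was 54.0 ± 13.9 in psah2k and 56.3 ± 4.31 in WT (SD, n = 4 each), a difference of −2.30 points (two-sided exact permutation p = 0.771). Without psah2k 4 the difference was 3.83 points, in the other direction, and without psah2k 3 it was −7.42. The value also depended on the features ranked: it was −11.2 points among those above 0 on the array (exact permutation p = 0.286) and −6.13 among the tested features (exact permutation p = 0.600).

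Cpn60beta4 held ranks of 45.1, 56.4, 40.4 and 10.8 on psah2k arrays 1 to 4, where the last is the shared rank of all features at 0. On WT arrays 1 to 4 it held 52.1, 55.3, 49.5 and 49.9. Arrays psah2k 1, 3 and 4 were below all WT arrays and psah2k 2 was above them all. The mean rank was 38.2 ± 19.5 in psah2k and 51.7 ± 2.68 in WT, a difference of −13.6 points (two-sided exact permutation p = 0.171, n = 4 each). Without psah2k 4 it was −4.42 points. Among features above 0, where psah2k 4 has no rank, the difference was −16.0 points (exact permutation p = 0.0571, the smallest that 3 against 4 arrays allow). How many tested features reach that p in this ranking was not counted, so it is not read as particular to Cpn60beta4. Among tested features the difference was −16.2 (exact permutation p = 0.114).

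SECE1 held ranks of 65.7, 51.0, 75.4 and 64.4 on psah2k arrays 1 to 4, and 68.6, 70.4, 71.8 and 74.6 on WT arrays 1 to 4. The mutant was lower on 3 arrays, but psah2k 3 ranked above every WT array. The mean rank was 64.1 ± 10.02 in psah2k and 71.4 ± 2.56 in WT, a difference of −7.24 points (two-sided exact permutation p = 0.229, n = 4 each). Without psah2k 2 the difference was −2.88 points and without psah2k 3 −11.0. It was −15.5 points among features above 0 and −11.9 among tested features (exact permutation p = 0.114 for both).

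In rank among all features, then, the genotypes overlapped for all 3 members, while they did not overlap for 52.7% of tested features. The smallest p that 4 against 4 arrays allow is 0.0286. A limma fit to the ranks of all tested features gave intervals (95%) of −18.5 to 13.8 points for Cpn60beta3, −35.3 to 8.22 for Cpn60beta4 and −18.8 to 4.29 for SECE1, with adjusted p = 0.803, 0.266 and 0.262. That fit called 0 of the 3 members and 46.7% of tested features. For Cpn60beta3, 84.7% of tested features had a larger absolute rank difference, for Cpn60beta4 47.0% and for SECE1 65.3%. The intervals leave room for shifts of well over 10 points, so they do not show that the ranks were alike.

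**Figure D2:**
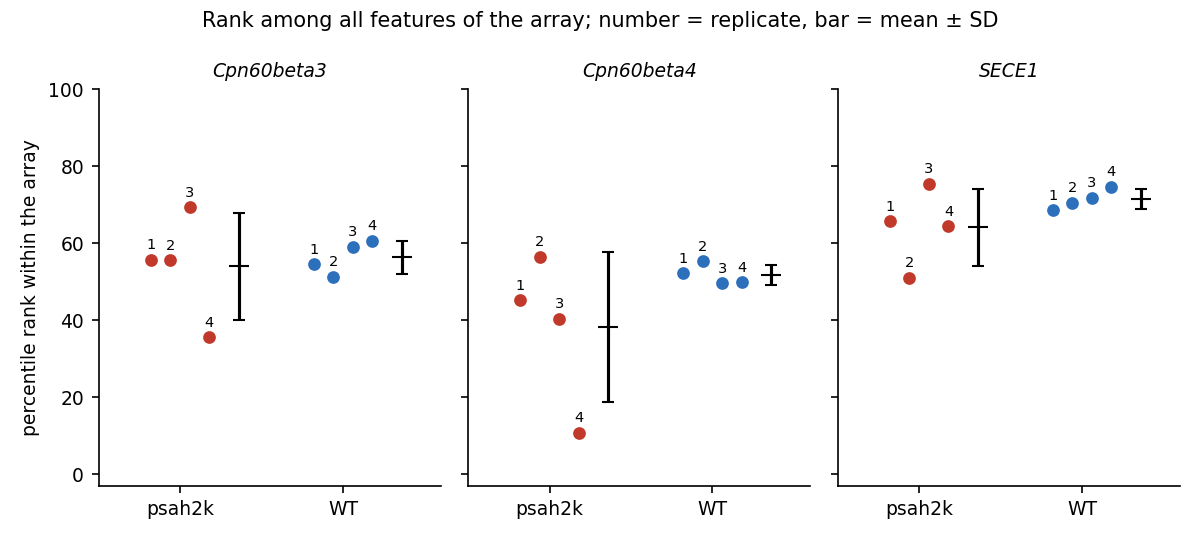
Percentile rank of the 3 features among all features of the same array, on 4 psah2k arrays (left in each panel) and 4 WT arrays (right), with the replicate number at each point and bars for mean ± SD. The genotypes overlap in each panel, and the psah2k points spread further than the WT points.

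The 3 members varied less among WT arrays than among psah2k arrays. The rank SD in psah2k was 13.9 points for Cpn60beta3, 19.5 for Cpn60beta4 and 10.02 for SECE1, beside a median of 8.15 over all tested features. In WT it was 4.31, 2.68 and 2.56 points, beside a median of 2.59. The psah2k values were above those of 70.2%, 86.4% and 57.0% of tested features, and the WT values above those of 74.8%, 51.8% and 49.5%. The coefficient of variation of the deposited intensity was 55.4%, 81.0% and 47.2% in psah2k for the members in that order, against 6.03%, 11.9% and 4.53% in WT. Over tested features its median was 43.2% in psah2k and 10.9% in WT. In psah2k the coefficients of the members were above those of 57.8%, 76.3% and 53.0% of tested features. A larger spread in psah2k than in WT was thus seen over the array as a whole. Within psah2k all 3 members spread more than the median feature, Cpn60beta4 the most. The extremes of the members did not fall on 1 array. Array psah2k 3 was highest for Cpn60beta3 and SECE1, and psah2k 4 was lowest for both chaperonin subunits. Array psah2k 2 was highest for Cpn60beta4 but lowest for SECE1.

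**Figure D3:**
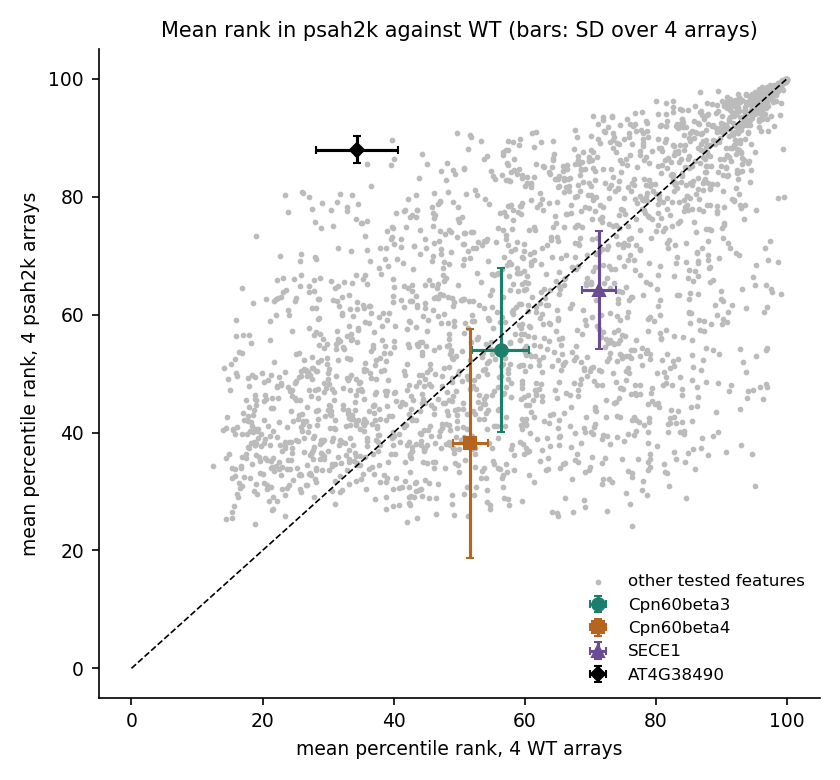
Mean percentile rank on 4 psah2k arrays (vertical axis) against 4 WT arrays (horizontal axis) for the tested features in grey, with SD bars for the named genes; the dashed line marks equal ranks. With all features ranked, Cpn60beta3 lies near the line, Cpn60beta4 and SECE1 lie below it with bars that reach it, and AT4G38490 lies far above it.

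With quantile normalization, which gives all arrays the same distribution of log2 values, Cpn60beta4 fell in psah2k and the other 2 members missed the test. Its normalized log2 values were −3.52, −2.85 and −3.54 on psah2k arrays 1 to 3, against −2.59, −2.43, −2.70 and −2.67 on WT arrays 1 to 4. The log2 fold change was −0.71 (SE 0.21, limma adjusted p = 0.0285), without psah2k 4 in the fit because it was at 0. The call was lost without any 1 of the WT arrays (adjusted p = 0.0536 to 0.0745). It was also lost with limma's trend and robust options (−0.71, adjusted p = 0.0620) and with numbers 1-2 and 3-4 averaged first (−0.77, adjusted p = 0.0873). With a pseudocount of 0.0309 that keeps psah2k 4 the value was −0.77 (limma adjusted p = 0.264). This pseudocount, taken from the low end of all values above 0, is close to the Cpn60beta4 intensities on psah2k 1 and 3. Those were 0.0394 and 0.0342, so the value depends strongly on the pseudocount chosen.

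Cpn60beta3 had normalized log2 values of −2.85, −2.90, −1.93 and −3.86 on psah2k arrays 1 to 4, and −2.49, −2.62, −2.26 and −2.17 on WT arrays 1 to 4. The genotypes overlapped, since psah2k 3 was above all WT arrays. The log2 fold change was −0.50 (interval −1.37 to 0.37, limma adjusted p = 0.292). It was −0.17 without psah2k 4 and, past the threshold, −0.80 without psah2k 3 (adjusted p = 0.0406).

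SECE1 had normalized log2 values of −2.28, −3.18, −1.53 and −2.18 on psah2k arrays 1 to 4, and −1.78, −1.65, −1.58 and −1.39 on WT arrays 1 to 4. Again psah2k 3 alone reached into the WT range. The log2 fold change was −0.69 (interval −1.44 to 0.06, limma adjusted p = 0.106). It was −0.38 without psah2k 2 and, past the threshold, −0.91 without psah2k 3 (adjusted p = 0.0209).

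So 1 of 3 members was called lower after quantile normalization, where limma called 53.0% of all tested features and 26.6% as lower. The member fold changes of −0.50, −0.71 and −0.69 stood beside a median of −0.12 over tested features, and 37.5%, 32.6% and 33.1% of tested features had a lower value. The fold changes of all 3 members were below that median under each of 4 scalings. After centring each array on its median the log2 fold changes were −0.61 for Cpn60beta3, −0.95 for Cpn60beta4 and −0.49 for SECE1, of which Cpn60beta4 passed (adjusted p = 0.0123), while the median over tested features was 0.18. After centring on the upper quartile they were −1.32, −1.70 and −1.19, and all 3 passed (adjusted p = 0.0268, 0.000792 and 0.0416), with a median over tested features of −0.53. Of all tested features, median centring gave 51.6% called and 16.8% called lower, and upper quartile centring 57.7% and 33.6%. Centring adds a constant per array, so these scalings are not independent checks. The direction was lower under each of these 4 scalings, whereas the call depended on the scaling for Cpn60beta3 and SECE1. Cpn60beta4 passed under all 4, but each of these fits lacked psah2k 4, its array at 0. With psah2k 4 kept by a pseudocount it did not pass (limma adjusted p = 0.264).

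**Figure D4:**
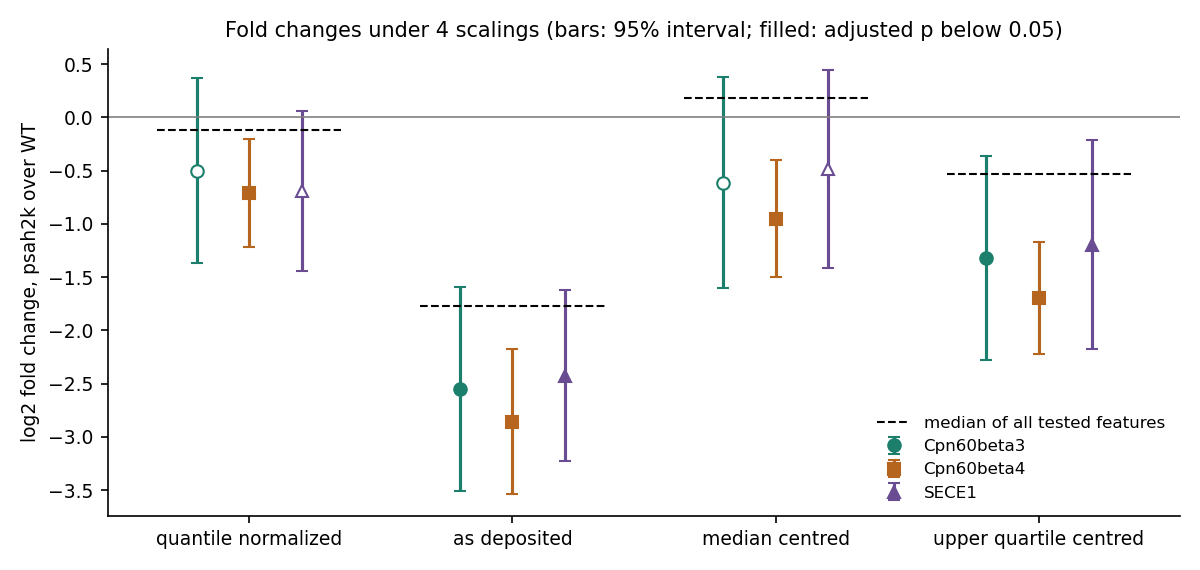
Log2 fold change, psah2k over WT, of the 3 genes under 4 scalings of the arrays, with 95% intervals from limma; filled symbols have an adjusted p below 0.05 and dashed lines give the median of all tested features. The symbols lie below the dashed line under each scaling, and Cpn60beta4 is filled throughout. Its fits lack psah2k 4, where it was at 0.

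Ratios between members within an array ask whether the members changed unequally, and a factor common to the array cancels in them. The shift between genotypes was not 1 such factor. Array upper quartiles were 0.182 to 0.194 in psah2k and 0.593 to 0.659 in WT. Medians were 0.0506 to 0.0582 and 0.304 to 0.336, a larger relative shift. A part of the shift that depends on brightness does not cancel in a ratio. The features are different probes, so only the change of a ratio between genotypes is read here, not its level. The log2 ratio of Cpn60beta4 over Cpn60beta3, the chaperonin paralogs, was −0.82, 0.07 and −1.89 on psah2k arrays 1 to 3, against −0.09, 0.14, −0.36 and −0.40 on WT arrays 1 to 4. It could not be formed on psah2k 4. It was lower than every WT ratio on psah2k 1 and psah2k 3, and within the WT range on psah2k 2. The means were −0.88 ± 0.98 in psah2k (SD, n = 3) and −0.18 ± 0.25 in WT (SD, n = 4), a difference of −0.71 (two-sided exact permutation p = 0.286, where 0.0571 is the smallest that 3 against 4 allow). The 95% interval of limma over all features was −1.99 to 0.58, so a severalfold fall of the paralog ratio and a modest rise were both within it. Without psah2k 3 the difference was −0.20, and without psah2k 2 it was −1.18. Cross-hybridisation between the features of these paralogs was not tested, since probe sequences were not used here.

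SECE1 over Cpn60beta3 had log2 ratios of 0.70, −0.36, 0.55 and 1.93 on psah2k arrays 1 to 4, against 0.53, 0.74, 0.49 and 0.55 on WT arrays 1 to 4. The psah2k arrays lay on both sides of the WT arrays. The difference was 0.13 (two-sided exact permutation p = 0.743, n = 4 each) with an interval of −1.05 to 1.30. It was −0.28 without psah2k 4, 0.48 without psah2k 2 and −0.19 from normalized values, so its direction was not settled. SECE1 over Cpn60beta4 had 1.52, −0.42 and 2.44 on psah2k arrays 1 to 3, against 0.62, 0.59, 0.85 and 0.95 on WT arrays 1 to 4. Its difference was 0.42 (two-sided exact permutation p = 0.629, n = 3 and 4) with an interval of −0.99 to 1.84. It was −0.21 without psah2k 3, 1.22 without psah2k 2, 0.25 without psah2k 1 and −0.0212 from normalized values. Of these 3 ratios 2 are independent. When limma was fitted to the log2 ratio of every feature to Cpn60beta3, 35.8% of features were called and the other 2 members were not (adjusted p = 0.377 for Cpn60beta4 and 0.870 for SECE1). Relative to Cpn60beta4, 56.9% were called and SECE1 was not (adjusted p = 0.574). A difference in response among the 3 members was not detectable with these arrays.

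**Figure D5:**
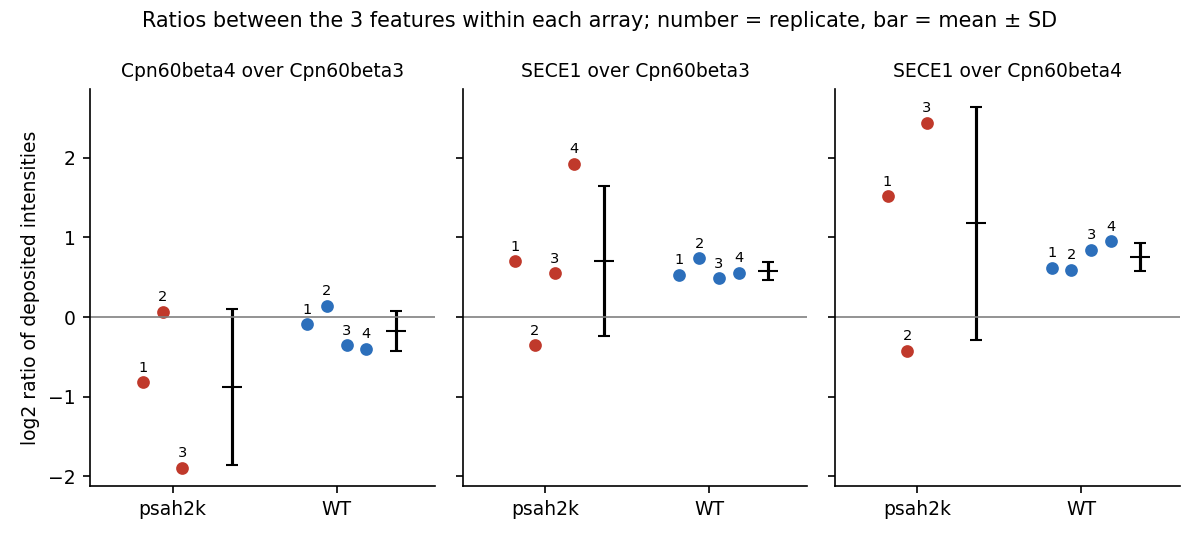
Log2 ratio of deposited intensities between the 3 features within each array, for psah2k (left in each panel) and WT (right), with the replicate number at each point and bars for mean ± SD. Ratios with Cpn60beta4 lack psah2k 4, where it was at 0, and the psah2k points lie on both sides of the WT mean in each panel.

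Of 121 loci in 12 lists of plastid folding, targeting and related functions, 9 had a feature of their own, including the 3 members, and 6 of the 9 were tested. In the list of 6 plastid chaperonin subunits the 2 members were the 2 with a feature, and the more widely studied CPN60A and CPN60B had none here. The 3 plastid co-chaperonins, the 12 other thylakoid targeting genes and the 5 lumenal and membrane proteins with Sec-type targeting had 0 features of their own. So did the 20 Toc and Tic import genes, the 13 mitochondrial and cytosolic chaperonins, the 7 markers of green tissue and the 8 root markers. The organ could therefore not be checked from markers.

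In the list of 6 plastid Sec translocase genes, the other measured locus was AT4G38490, which has no symbol in the RefSeq table and was higher in psah2k. Its intensities were 0.846, 0.574, 0.364 and 0.535 on psah2k arrays 1 to 4, against 0.179, 0.268, 0.158 and 0.221 on WT arrays 1 to 4. Every psah2k array was brighter than every WT array, against the general dimming. Its mean rank was 88.0 ± 2.34 in psah2k and 34.4 ± 6.23 in WT (SD, n = 4 each). It rose by 3.08 log2 units on the quantile normalized scale (SE 0.24, limma adjusted p = 5.62e-05) and by 1.45 on the deposited scale. Of 2353 tested features, limma called 620 higher on the quantile normalized scale and 172 on the deposited scale. On the quantile normalized scale 99.1% of tested features had a lower fold change than AT4G38490. With numbers 1-2 and 3-4 averaged first, the rise of 3.08 had a limma adjusted p of 0.0162.

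The NDH complex is the home of the known substrate of Cpn60beta4. Of 23 nuclear NDH subunits and assembly factors, NdhS, NdhN and CRR41 had a feature of their own and only NdhS was tested. NdhS, the ferredoxin-binding subunit, had intensities of 8.66, 8.42, 5.23 and 5.73 on psah2k arrays 1 to 4, against 6.85, 6.95, 5.06 and 5.27 on WT arrays 1 to 4. It was bright in both genotypes, which overlapped, and its mean rank was 98.3 ± 0.145 in psah2k and 98.2 ± 0.195 in WT. Its log2 fold change was −0.21 after quantile normalization (limma adjusted p = 0.202), 0.20 as deposited (adjusted p = 0.440) and, past the threshold, 2.13 and 1.42 after median and upper quartile centring. NdhN, another subunit, was at 0 on 3 psah2k and 2 WT arrays. CRR41, an assembly factor of the complex, was listed at 0 on all 4 WT arrays and at 0.175, 0.0613, 0 and 0.0498 on psah2k arrays 1 to 4.

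Of 11 genes of Rubisco assembly and its subunits, the substrate side of the general chaperonin, AT3G47650 was the 1 with its own feature. It has no symbol in the RefSeq table. Its intensities were 2.41, 2.52, 1.51 and 1.499 on psah2k arrays 1 to 4, against 0.855, 0.887, 0.772 and 0.785 on WT arrays 1 to 4, without overlap. It rose by 1.74 log2 units on the quantile normalized scale (SE 0.11, limma adjusted p = 2.63e-05) and by 1.23 on the deposited scale. Limma called 620 of 2353 tested features higher on the quantile normalized scale and 172 on the deposited scale. On the former, 92.9% of tested features had a lower fold change than AT3G47650. With numbers 1-2 and 3-4 averaged first, the rise of 1.74 had a limma adjusted p of 0.0195. Among 10 genes of the plastid Hsp70, Hsp90 and Hsp100 systems and their partners, AT5G55220 was the 1 with its own feature, and it was at 0 on all 4 WT arrays and on psah2k 2.

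By the mean absolute difference in percentile rank over the 8 arrays, the members lay 11.5 points apart for Cpn60beta3 and Cpn60beta4, 13.7 for Cpn60beta3 and SECE1, and 24.1 for Cpn60beta4 and SECE1. Among 465 other tested features with 1 gene, the most like Cpn60beta3 were AT5G40470 (3.65 points), AT4G00590 (4.28) and AT1G76050 (6.16). The most like Cpn60beta4 were AT1G31220 (5.38 points), AT4G16610 (6.69) and AT4G08630 (7.39). Those most like SECE1 were AT3G29410 (3.40 points), AT4G22490 (3.54) and AT1G50510 (4.69). The median distance of these candidates was 20.7 points from Cpn60beta3, 22.9 from Cpn60beta4 and 20.7 from SECE1. AT1G31220 and AT4G08630, like Cpn60beta4, had a lowest psah2k intensity of 0, which the choice by similar rank on these arrays favours. The intensities of AT1G31220 reached 0.0557 in psah2k and lay between 0.305 and 0.454 in WT. Those of AT4G08630 reached 0.0823 in psah2k and lay between 0.347 and 0.504 in WT.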

How the data were processed

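Total RNA of 4 psah2k and 4 WT samples was measured on 1-channel arrays, and titles in the labels gave groups and numbers. The authors deposited 1 linear intensity per feature and array. No source used here states the background correction, the scaling or the probe sequences, and no detection flags were used. Gene names came from GEO's annotation of the platform (1562 of 3439 listed, 692 with 1 gene, 870 with several, 1877 unnamed here), updated through the TAIR10.1 RefSeq table. No coordinates or sequences were used. Members and lists were chosen with earlier results of these data known.

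Intensities were log2 transformed with 0 as missing. Array medians of log2 values spanned 2.14, above a limit of 0.1, which led to quantile normalization. Features needed 3 or more values per genotype, and the 2353 that had them entered a limma 3.58.1 fit (lmFit, eBayes; R 4.3.3) of psah2k minus WT, two-sided, with Benjamini-Hochberg adjustment over all features and a threshold of 0.05. Ranks and within-array ratios were compared by two-sided exact permutation tests in scipy 1.17.1. The fit was also run on simulated data drawn from the means and spreads of these arrays, with results not given here. Genes named are the members, listed genes with a feature of their own, and the 3 tested features nearest in rank to each member. The alternatives varied scaling, values of 0, filter, array weights, variance model, a block for the replicate number, averaging of numbers 1-2 and 3-4, and arrays left out. The number of arrays limits the precision.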

Additional observations from a re-analysis of the deposited data

How the results depend on the processing

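Cpn60beta3, Cpn60beta4 and SECE1 were lower in psah2k in each of the 12, 10 and 12 alternatives that gave a fold change, arrays left out aside, and passed the threshold in 2, 4 and 2 of them. These alternatives use the same 8 arrays or part of them, so they are not independent checks. Over them, 29.3% to 80.3% of tested features were called in either direction. As deposited, the log2 fold changes of Cpn60beta3 and SECE1 passed at −2.55 and −2.42, and after upper quartile centring at −1.32 and −1.19. With a pseudocount they were only −0.09 and −0.32 (limma adjusted p = 0.804 and 0.272). With 0 replaced by the array's lowest positive value they were −0.19 and −0.39 (adjusted p = 0.728 and 0.291). Cpn60beta4 missed the threshold with limma's trend and robust options (−0.71, adjusted p = 0.0620), with numbers 1-2 and 3-4 averaged first (−0.77, adjusted p = 0.0873), with a pseudocount (−0.77, adjusted p = 0.264), with 0 replaced by the array's lowest positive value (−2.86, adjusted p = 0.364) and with numbers 1 and 2 alone (−0.69, adjusted p = 0.145). The last was chosen after seeing the data. Cpn60beta4 could not be tested with numbers 3 and 4 alone, with features above 0 on all 8 arrays, or without psah2k 1, 2 or 3. With arrays left out in turn, the log2 fold changes ranged from −0.80 to −0.17 for Cpn60beta3, −0.76 to −0.67 for Cpn60beta4 and −0.91 to −0.38 for SECE1. With arrays left out, AT4G38490 (2.84 to 3.34) and AT3G47650 (1.63 to 1.84) passed in 8 of 8 cases. In these fits 43.7% to 56.9% of tested features were called.

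The replicate block gave −0.73 for Cpn60beta4 (adjusted p = 0.0523) and 1087 calls over the array. It changed no call of the 5 other genes fitted by name, Cpn60beta3, SECE1, AT4G38490, AT3G47650 and NdhS. Deviations of same-numbered arrays correlated at 0.0563 to 0.116 over 1806 features, and each psah2k array correlated best with the WT array of its number, a hint from the data and not from the design. Over the array 1246 features were called, 1025 to 1082 with an array left out, 1890 as deposited, 689 with numbers averaged first and 820 with numbers 3 and 4 alone, a choice made after seeing the data.

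NdhS turned from −0.21 to 2.13 after median centring, 1.42 after upper quartile centring, 0.20 as deposited, 0.0255 with features above 0 on all arrays, 0.0339 with a pseudocount and 0.0341 with 0 replaced. The rank difference of SECE1 was −15.5 points among features above 0. With arrays left out, rank differences ranged from −7.42 to 3.83 for Cpn60beta3, −19.6 to −4.42 for Cpn60beta4 and −11.0 to −2.88 for SECE1. With 0 replaced in this way, chosen after seeing the data, the ratio of Cpn60beta4 over Cpn60beta3 differed by −3.84 and that of SECE1 over Cpn60beta4 by 3.97. From normalized values SECE1 over Cpn60beta3 differed by −0.19 and SECE1 over Cpn60beta4 by −0.0212. With arrays left out the ratios ranged from −1.18 to −0.20, −0.28 to 0.48 and −0.21 to 1.22 in the order of the report. Where not shown by the construction of an alternative, the cause was not tested.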
